A study of Mus musculus with 4 samples.

Results

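The genes described here are 10 genes of antigen presentation by the major histocompatibility complex (MHC), chosen by name from the 24637 genes of the expression table: *B2m*, *H2-K1*, *H2-D1*, *Tap1*, *Tap2*, *Nlrc5*, *Cd74*, *H2-Aa*, *H2-Ab1* and *Ciita*. Messenger RNA was sequenced from 4 cultures of mouse embryonic stem cell (ESC) lines, 2 labelled WT (Taf4+/+) and 2 labelled *Taf4a*-/- (Taf4-/-). The lines were independent isolates from blastocysts of *Taf4a*+/- crosses of C57Bl6J mice, and the null allele lacks a pair of internal exons of *Taf4a*, which encodes a core subunit of the general transcription factor TFIID. All 4 cultures were treated alike. The cells were kept on inactivated embryonic fibroblast feeders with LIF, then grown for 5 days as embryoid bodies in medium with 20% heat-inactivated serum, and then held for 9 days on gelatin-coated plates to form cardiomyocytes. The study's methods name 2 independent lines of each genotype, but the labels do not say which line gave which library. No sort of cells is described. The p-values rest on the spread between the 2 libraries of each genotype, combined with that of other genes, and on no further replicates. Fewer cells of a type and less RNA per cell cannot be told apart in such cultures.

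The libraries held 21732746 to 27733034 reads on genes, and the 10 most expressed genes took 4.43% to 5.45% of the counts. Values are normalized counts, which are read counts divided by a size factor of each library, and 1 read was worth 0.877 to 1.11 of them. The WT cultures gave 889 (replicate 1) and 678.5 (replicate 2) normalized counts of *Taf4a* itself, and those labelled *Taf4a*-/- gave 1722 and 1799. Its count over the whole gene was thus higher in the libraries labelled *Taf4a*-/- (log2 fold change 1.18, standard error 0.16, adjusted p = 0.00569 by limma). That count includes the exons that were not deleted, so genotypes are named here by their labels. The cultures are labelled cardiac cells. *Tnnt2*, cardiac troponin T, had 2730 and 3281 normalized counts in WT and 484 and 470.0 in the libraries labelled *Taf4a*-/-, and all 8 cardiomyocyte markers examined were lower there. All 7 pluripotent cell markers examined were higher there, and 4 of them were called without a variance trend in the test.

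MHC class I molecules display peptides made inside a cell on its surface, where CD8+ T cells and natural killer cells read them. A class I molecule is a heavy chain, such as those of *H2-K1* and *H2-D1*, held by the invariant light chain β2-microglobulin (*B2m*), and its peptides are pumped into the endoplasmic reticulum by the transporter that *Tap1* and *Tap2* encode. Class II molecules pair an α chain (*H2-Aa*) with a β chain (*H2-Ab1*), are escorted by the invariant chain (*Cd74*), and show peptides from endocytosed material to CD4+ T cells. Macrophages, dendritic cells and B cells carry most class II, whereas most nucleated cells carry class I and undifferentiated ESCs have little of it. *Nlrc5* and *Ciita* encode related coactivators that do not bind DNA themselves: they are held at the class I and class II promoters by RFX, CREB and NF-Y proteins. Interferon γ induces both pathways.

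The promoters of 5 of the 10 genes were found in a RefSeq table of build GRCm38.p6, and they are shown because this family is known for shared promoter motifs. Each sequence runs 5′ to 3′ on the strand of its gene, from 250 bases before the start site to 50 after it. Capitals mark matches on either strand to 4 motifs: TGACG, the core of the site of CREB proteins; ATTGG, the inverted CCAAT box of NF-Y; AANNGAAA, a core of sites of interferon regulatory factors; and GGGATTCCC, a site of the NF-κB type. The windows are *B2m* (chr2:122147437-122147736, plus strand), *H2-K1* (chr17:34000298-34000597, minus strand, the first of 2 entries), *H2-D1* (chr17:35262844-35263143, plus strand), *H2-Aa* (chr17:34287774-34288073, minus strand) and *Tap1* (chr17:34187306-34187605, plus strand).
B2m: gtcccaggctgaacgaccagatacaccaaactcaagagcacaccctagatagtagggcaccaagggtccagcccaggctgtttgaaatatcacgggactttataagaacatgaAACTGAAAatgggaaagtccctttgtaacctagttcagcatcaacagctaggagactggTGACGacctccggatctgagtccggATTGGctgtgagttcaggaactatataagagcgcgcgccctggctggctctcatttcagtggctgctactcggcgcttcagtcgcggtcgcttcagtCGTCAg
H2-K1: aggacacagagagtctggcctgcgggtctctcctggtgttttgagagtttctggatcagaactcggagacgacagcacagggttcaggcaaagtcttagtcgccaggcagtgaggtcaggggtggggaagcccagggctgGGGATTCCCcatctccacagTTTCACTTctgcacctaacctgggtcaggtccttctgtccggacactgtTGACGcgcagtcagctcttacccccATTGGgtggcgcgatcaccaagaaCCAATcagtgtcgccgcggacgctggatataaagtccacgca
H2-D1: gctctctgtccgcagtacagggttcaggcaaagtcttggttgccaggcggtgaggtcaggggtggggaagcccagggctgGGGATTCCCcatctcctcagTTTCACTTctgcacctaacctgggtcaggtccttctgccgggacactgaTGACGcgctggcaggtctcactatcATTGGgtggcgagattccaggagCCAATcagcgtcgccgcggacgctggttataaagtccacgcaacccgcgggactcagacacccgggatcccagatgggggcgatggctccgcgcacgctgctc
H2-Aa: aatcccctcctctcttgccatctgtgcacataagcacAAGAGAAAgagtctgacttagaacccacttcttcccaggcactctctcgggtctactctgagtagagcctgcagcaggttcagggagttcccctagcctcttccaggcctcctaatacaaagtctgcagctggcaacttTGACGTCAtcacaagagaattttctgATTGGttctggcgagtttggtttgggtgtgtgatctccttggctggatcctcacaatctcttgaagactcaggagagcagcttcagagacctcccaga
Tap1: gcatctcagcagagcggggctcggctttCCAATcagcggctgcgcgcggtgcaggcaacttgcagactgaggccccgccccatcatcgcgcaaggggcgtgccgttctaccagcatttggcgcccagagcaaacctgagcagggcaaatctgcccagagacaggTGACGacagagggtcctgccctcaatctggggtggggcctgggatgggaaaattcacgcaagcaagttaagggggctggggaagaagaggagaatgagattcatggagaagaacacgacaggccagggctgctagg

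TGACG was followed by ATTGG at a distance of 25 bases, start to start, in *B2m*, *H2-K1* and *H2-D1*. In *H2-Aa* TGACG matches both strands in an overlapping palindrome, starting at -74 on the strand of the gene and at -71 on the opposite strand. ATTGG starts at -48. The shorter distance, 23 bases, is that of the opposite-strand match, whereas the matches 25 bases apart were on the same strand. *Tap1* held both motifs, but 136 bases apart. A pair 15 to 35 bases apart stood in 4 of these 5 promoters, and in 2.48% of the 32851 promoters of the table. AANNGAAA stood in the same 4 and in 23.9% of all promoters, and GGGATTCCC in *H2-K1* and *H2-D1* and in 0.353% of all. With or without a partner, TGACG was in 20.8% and ATTGG in 37.4% of all promoters. The motifs were chosen after these sequences were seen. The window of 15 to 35 bases spans the distances found in *B2m*, *H2-K1*, *H2-D1* and *H2-Aa*. The shares of all promoters are therefore given as description and not as a test. A match is only a run of letters, and binding was not measured in these cultures. *Tap2*, *Nlrc5*, *Cd74*, *H2-Ab1* and *Ciita* had no entry.

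**Figure D1:**
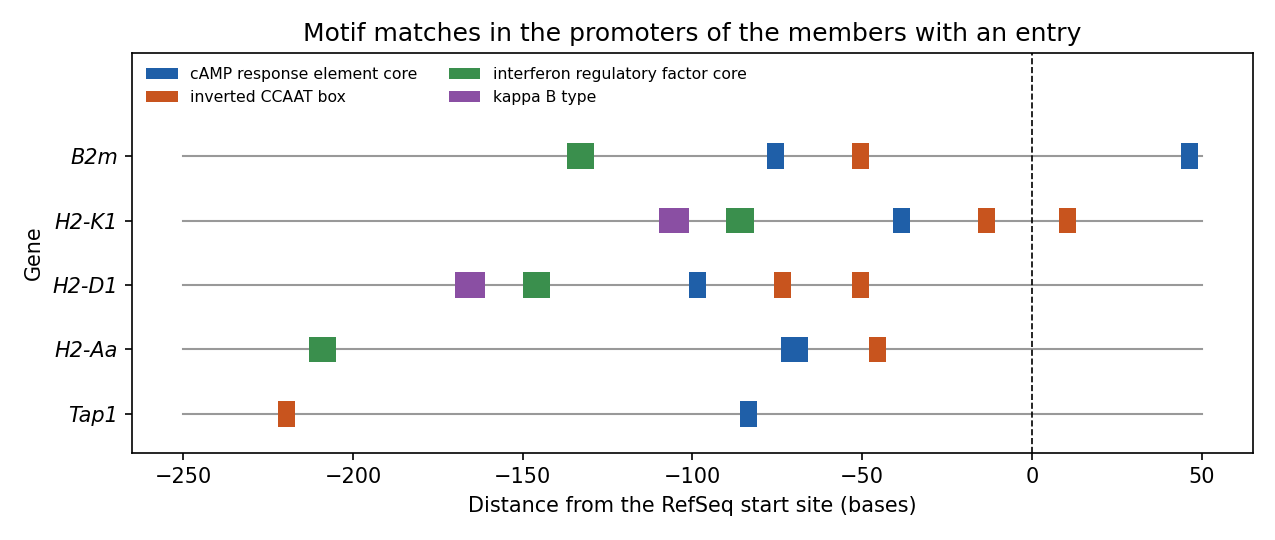
The plot maps the motif matches of the 5 promoters by distance from the RefSeq start site in bases (x axis). It has a row for each gene and a colour for each motif. Distances depend on the start site of the entry used: TGACG starts at -41 in *H2-K1* and at -101 in *H2-D1*, within similar sequences. The start sites used in these cultures were not measured. The TGACG and ATTGG marks lie 25 bases apart in *B2m*, *H2-K1* and *H2-D1*, while those of *Tap1* are 136 bases apart.

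In the comparison of genotypes, the libraries labelled *Taf4a*-/- had lower levels of *B2m*, *H2-K1*, *Tap1*, *Cd74* and *H2-Ab1*, and none of the 7 genes tested was higher. Falls on the log2 scale ran from 0.99 for *Tap1* to 3.40 for *H2-Ab1*. The test was limma on log2(normalized count + 1), over the 16926 genes whose mean reached 10 normalized counts, with Benjamini-Hochberg adjusted p-values under 0.05 called. Of the 10 genes, 7 passed this filter, 5 were lower and 0 were higher, and *H2-D1* and *Tap2* were not called. At an unadjusted p under 0.05 all 7 were lower and 0 higher, and limma's voom on recovered reads called 3 lower and 0 higher. Among all genes tested, 17.3% were called lower and 11.3% higher by the adjusted p, 23.7% and 18.8% by the unadjusted p, and 15.2% and 12.6% by voom. Both libraries labelled *Taf4a*-/- were below both WT libraries for 9 of the 10 genes, which leaves out *Ciita*, and for 36.6% of all genes tested. The median log2 fold change of the 7 genes was -1.37, and that of all genes tested was -0.01.

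**Figure D2:**
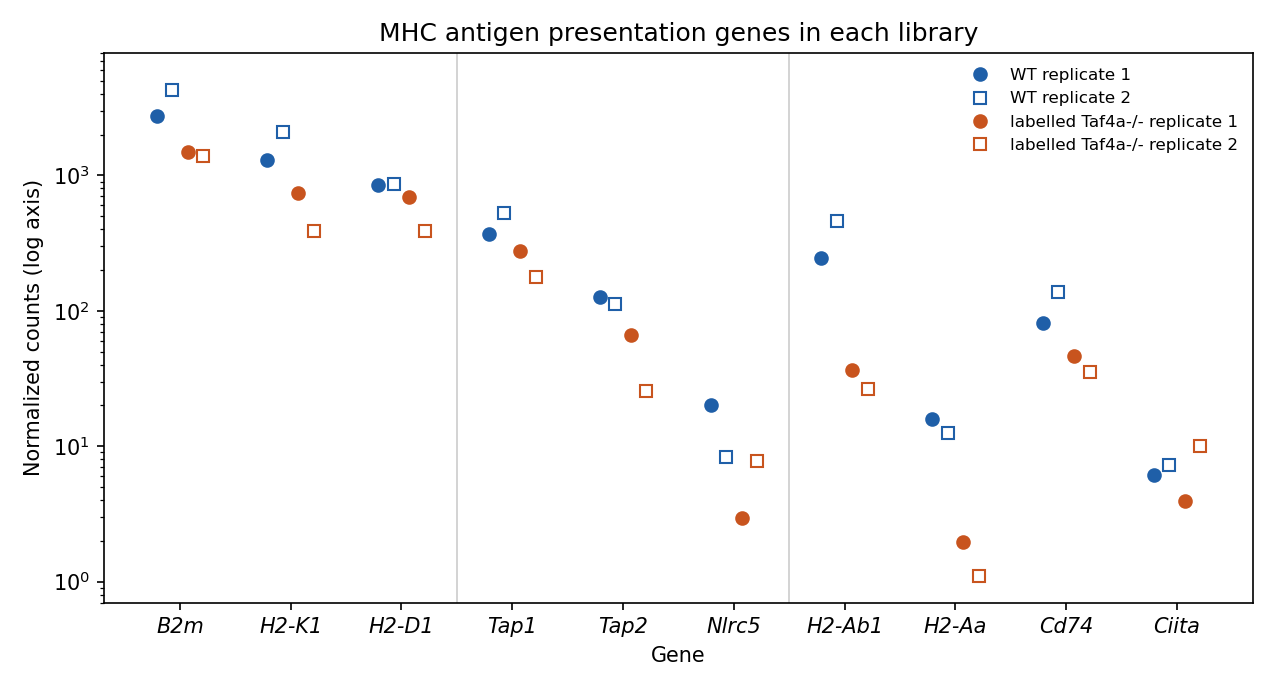
The plot gives the normalized count of each of the 10 genes (log-scaled y axis) in every library, with WT and the libraries labelled *Taf4a*-/- side by side and 1 point for each library. The genotypes overlap only for *Ciita*, and the widest gap is that of *H2-Ab1*, with 246 and 463 against 36.2 and 26.5.

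*B2m* (ENSMUSG00000060802), the light chain that every classical class I molecule needs, was counted at 2756 and 4250 (normalized) in the WT libraries. It had 1479 and 1394 in the libraries labelled *Taf4a*-/-. The WT libraries differed from each other far more than the other pair did, and the lower WT value was still well above both. The means were 3503 ± 1057 and 1436 ± 60.5 (SD, n = 2 each), so that 41.0% of the WT level was left (log2 fold change -1.25, standard error 0.21, adjusted p = 0.0102 by limma). The call held with any of the 4 libraries left out, and it was lost without a variance trend in the test (adjusted p = 0.0510 by limma).

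*H2-K1* (ENSMUSG00000061232), the heavy chain of the K molecule, had 1299 and 2086 normalized counts in WT and 740.06 and 385 in the libraries labelled *Taf4a*-/-. The genotypes did not overlap, and within each genotype the libraries stood wide apart. Its mean fell from 1693 ± 557 to 562 ± 251 (SD, n = 2 each), to 33.2% of WT (log2 fold change -1.62, standard error 0.35, adjusted p = 0.0216 by limma). Without WT replicate 2 it was not called (log2 fold change -1.28, adjusted p = 0.133 by limma), nor without a variance trend (adjusted p = 0.0783 by limma). *H2-D1* (ENSMUSG00000073411), the heavy chain of the D molecule, had 848 and 864 normalized counts in WT and 689 and 386 in the libraries labelled *Taf4a*-/-. Here the WT libraries were nearly equal and the other pair was spread, replicate 1 lying close to WT. The means were 856 ± 11.8 and 538 ± 214 (SD, n = 2 each), and the difference was not called (log2 fold change -0.73, standard error 0.27, adjusted p = 0.0930 by limma). Without replicate 1 of the libraries labelled *Taf4a*-/- it was called (log2 fold change -1.15, adjusted p = 0.0106 by limma), and without replicate 2 the log2 fold change was -0.31 (adjusted p = 0.437 by limma). These heavy chains are close copies of other class I genes. Of the 50-base words in transcripts of *H2-K1*, 7.29% also occur in other genes, and 12.8% of those of *H2-D1* do. Reads of such words may be lost or assigned to the wrong gene.

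*Tap1* (ENSMUSG00000037321) encodes a subunit of the peptide transporter. It had 369 and 528 normalized counts in WT, and 275 and 178 in the libraries labelled *Taf4a*-/-. All 4 values followed each other at short steps, with the genotypes apart. The means were 448 ± 112 and 227 ± 68.6 (SD, n = 2 each), which is 50.5% of WT (log2 fold change -0.99, standard error 0.28, adjusted p = 0.0462 by limma). This call lay at the threshold, and it was lost without WT replicate 1 (adjusted p = 0.0607), WT replicate 2 (0.204) or replicate 2 of the libraries labelled *Taf4a*-/- (0.181). It was also lost without the filter (0.0507), with equal totals (0.0508), with quantile normalization (0.0877), without a variance trend (0.106) and by voom (0.0532). A replicate block ended the call of *Tap1* too (adjusted p = 0.0608 by limma). *Tap2* (ENSMUSG00000024339), which encodes the other subunit, had 127 and 112 normalized counts in WT and 66.6 and 25.4 in the libraries labelled *Taf4a*-/-. The WT libraries were close, and the other pair differed more from each other. The means of 119.7 ± 10.5 and 46.0 ± 29.1 (SD, n = 2 each) left 38.4% of WT, without a call (log2 fold change -1.51, standard error 0.48, adjusted p = 0.0590 by limma). Without replicate 1 of the libraries labelled *Taf4a*-/- it was called (log2 fold change -2.19, adjusted p = 0.00773 by limma), and so it was with a pseudocount of 10 (adjusted p = 0.0495 by limma). Without replicate 2 of that label the log2 fold change was -0.83 (adjusted p = 0.215 by limma). Genes on the opposite strand overlap 3.87% of the exon bases of *Tap1* and 18.5% of those of *Tap2*. The library kit is not stated to keep the strand, so reads of these partners cannot be told apart.

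*H2-Ab1* (ENSMUSG00000073421), the β chain of class II, showed the deepest fall of the 7 tested genes. It had 246 and 463 normalized counts in WT, and 36.2 and 26.5 in the libraries labelled *Taf4a*-/-. Every WT value was several times every other value. The means were 355 ± 153 and 31.4 ± 6.84 (SD, n = 2 each), an 11.3-fold difference that left 8.84% of WT (log2 fold change -3.40, standard error 0.38, adjusted p = 0.00325 by limma). *H2-Ab1* was the gene of the 10 that stayed called under each alternative run.

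*H2-Aa* (ENSMUSG00000036594), the α chain that pairs with it, was counted at the edge of detection. It had 15.8 and 12.5 normalized counts in WT, from 18 and 12 reads, and 1.96 and 1.11 in the libraries labelled *Taf4a*-/-, from 2 reads and 1 read. Its mean over the 4 libraries was under 10, so it was not tested. The ratio of WT to the libraries labelled *Taf4a*-/- was 9.16 from the reads, with an exact 95% interval of 2.85 to 46.9 that covers counting error only. Without the filter on low values it was called lower (log2 fold change -2.59, adjusted p = 0.0255 by limma). *Cd74* (ENSMUSG00000024610), the invariant chain, had 80.7 and 138 normalized counts in WT and 46.0 and 35.4 in the libraries labelled *Taf4a*-/-. Its means were 109 ± 40.7 and 40.7 ± 7.51 (SD, n = 2 each), or 37.2% of WT (log2 fold change -1.37, standard error 0.37, adjusted p = 0.0397 by limma). That call was lost without WT replicate 2 (adjusted p = 0.150), or without replicate 1 (0.0566) or replicate 2 (0.132) of the libraries labelled *Taf4a*-/-. It was also lost with quantile normalization (0.0848), with a replicate block (0.0547), without a variance trend (0.0658) and by voom (0.0511).

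The coactivators were counted at low levels. *Nlrc5* (ENSMUSG00000074151), the class I coactivator, had 20.2 and 8.31 normalized counts in WT and 2.94 and 7.74 in the libraries labelled *Taf4a*-/-. WT replicate 2 and the nearest library of the other genotype differed by 1 read, 8 against 7. The ratio from the reads was 2.84 with an exact 95% interval of 1.36 to 6.49, which covers counting error only and not the spread between libraries. The log2 fold change of *Nlrc5* was -1.26, and it ran from -0.67 without WT replicate 1 to -1.85 without WT replicate 2. *Ciita* (ENSMUSG00000022504), the class II coactivator, had 6.14 and 7.27 normalized counts in WT and 3.92 and 9.95 in the libraries labelled *Taf4a*-/-. Here the genotypes overlapped, and the ratio was 0.986 with an interval of 0.430 to 2.28 by the same method. Neither gene reached the mean of 10. Without the filter neither was called, with adjusted p-values of 0.259 and 0.952 by limma. *Ciita* had 4 to 9 reads a library, and a 2-fold difference lies within its interval and was not detectable at this depth.

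**Figure D3:**
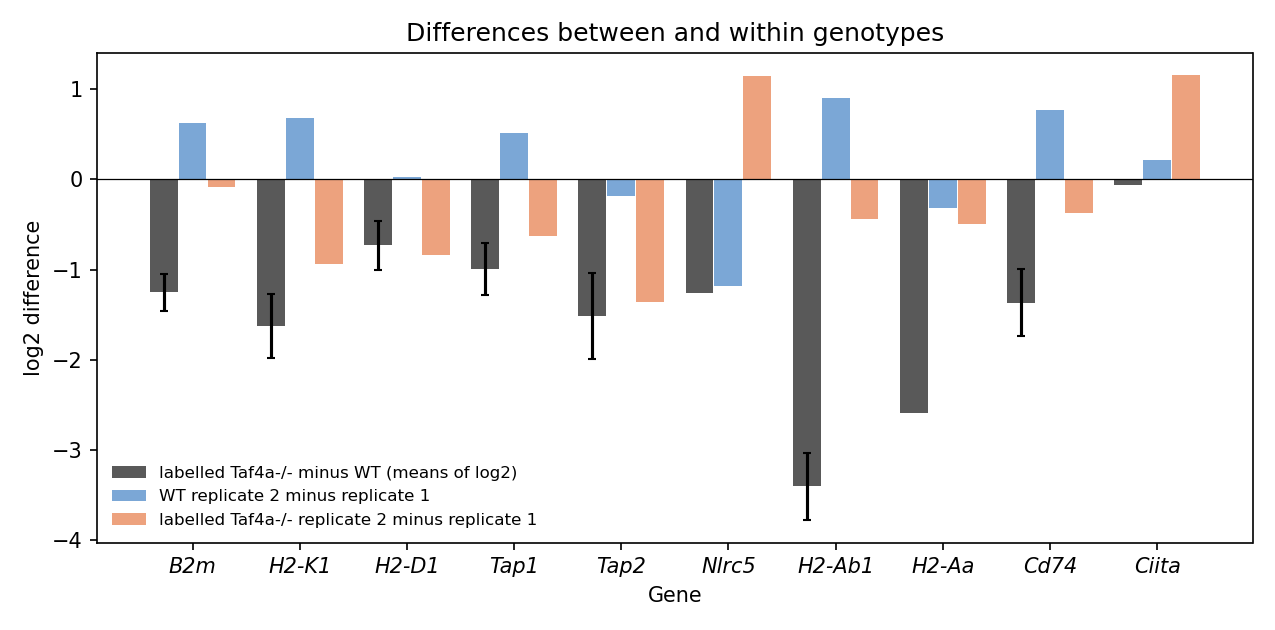
The plot sets the log2 fold change between genotypes (grey bars; error bars are limma standard errors, drawn for the 7 tested genes) beside the log2 difference of replicate 2 minus replicate 1 in each genotype (blue and orange bars), for the 10 genes. The fall of *H2-Ab1* by 3.40 is far outside its differences between replicates of 0.91 and -0.43, whereas those of *Ciita* are larger than its fold change.

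Per kilobase of exon, *B2m* had the highest level of the 10 genes in both genotypes. It had 3204 and 4942 normalized counts per kilobase in WT, and 1720 and 1620 in the libraries labelled *Taf4a*-/-. In WT it was followed by *H2-K1* (498 and 800), *H2-D1* (328 and 334), *H2-Ab1* (150 and 282), *Tap1* (67.4 and 96.4), *Cd74* (57.2 and 98.0), *Tap2* (33.6 and 29.7), *H2-Aa* (7.94 and 6.28), *Nlrc5* (2.76 and 1.14) and *Ciita* (0.989 and 1.17), as levels per kilobase. The ranges of *Tap1* and *Cd74*, and those of *Nlrc5* and *Ciita*, overlapped. In the libraries labelled *Taf4a*-/- the level per kilobase of *H2-Ab1* was 22.03 and 16.1, below *Tap1* (50.2 and 32.5) and *Cd74* (32.6 and 25.1) and overlapping *Tap2* (17.6 and 6.73). There *H2-K1* (284 and 148) and *H2-D1* (266 and 149) overlapped as well. The ratio of *H2-K1* to *H2-D1* per kilobase was 1.52 and 2.40 in WT and 1.07 and 0.990 in the libraries labelled *Taf4a*-/-. The RNA level of *H2-Aa*, for the α chain of class II, stayed far below that of *H2-Ab1*, for the β chain, in each library. Per kilobase *H2-Ab1* was at 18.9 and 44.9 times *H2-Aa* in WT, where *H2-Aa* had 18 and 12 reads. In the libraries labelled *Taf4a*-/- *H2-Ab1* was at 22.4 and 29.0 times *H2-Aa*, which rests there on at most 2 reads.

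Replicates of a genotype differed for several of the 10 genes at once. WT replicate 2 was above WT replicate 1 for 7 of them, with a median log2 difference of 0.36, and for 51.8% of all genes tested. Replicate 1 of the libraries labelled *Taf4a*-/- was above replicate 2 for 8 of them, with a median log2 difference of 0.46, and for 49.2% of all genes tested. *B2m* was nearly level in that pair, and *Nlrc5* and *Ciita*, the exceptions, were higher in replicate 2 by 1.15 and 1.16 on the log2 scale at under 10 reads.

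The remaining genes of the pathway were taken from lists chosen with earlier results of these data known. A list of class I genes other than *H2-K1* and *H2-D1*, which does not hold every H2 gene, had 13 rows tested. Of these, 3 were lower and 1 was higher, and the median log2 fold change was -1.19 (-0.73 without WT replicate 2). Here and in the lists below, counts called by limma stand beside 17.3% lower and 11.3% higher among all genes tested. *Mr1*, which presents vitamin B metabolites, fell from 235 and 325 to 40.1 and 40.9 normalized counts (log2 fold change -2.74, adjusted p = 0.00258 by limma). *H2-T23*, whose product Qa-1 is read by natural killer cell receptors, had a log2 fold change of -1.73 (adjusted p = 0.0202 by limma) and *H2-T22* one of -1.32 (adjusted p = 0.00845 by limma). Outside this list, *H2-M5* and *H2-M6-ps* were called higher. *Cd1d1*, which is in the list and presents lipids, was higher, with 46.5 and 43.6 normalized counts in WT against 115 and 154 (log2 fold change 1.54, adjusted p = 0.0148 by limma). Without WT replicate 2 this list had 1 gene called lower and 0 higher, and without replicate 2 of the libraries labelled *Taf4a*-/- it had 2 lower and 0 higher, so that *Cd1d1* was not called in either case.

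In the lists of genes that make and load class I peptides, which leave out *Tap1* and *Tap2*, no gene was called. None of 10 loading and trimming genes was called, with a median log2 fold change of -0.26, while 2 were lower and 0 higher at an unadjusted p under 0.05 and voom called 0. Without WT replicate 1, 2 of these genes were called lower, and 1 without either replicate of the libraries labelled *Taf4a*-/-. The most abundant of them were *Hspa5*, a chaperone of the endoplasmic reticulum (log2 fold change -0.25), and *Pdia3*, a member of the loading complex (-0.60, adjusted p = 0.0735 by limma). Of 4 genes of the immunoproteasome and its activator, 0 were called by limma and by voom, and 1 was lower at an unadjusted p under 0.05. Without replicate 1 of the libraries labelled *Taf4a*-/- limma called 1 of the 4 lower. *Psmb8*, which lies beside *Tap1*, had 146 and 88.3 normalized counts in WT against 110 and 37.6. Of 7 constitutive proteasome genes, 0 were called by either method and 0 passed an unadjusted p of 0.05, with a median log2 fold change of 0.02.

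Of 10 other genes tested for class II chains, their loading or their removal, 5 were lower and 0 higher. By voom the counts were 5 and 0, and at an unadjusted p under 0.05 they were 6 and 0. The median log2 fold change was -1.40, and *H2-Eb1* was the only chain gene among the 5 called. *Ctss* encodes cathepsin S, which trims the invariant chain in macrophages and dendritic cells. It had 756 and 885 reads in WT and 0 and 2 in the libraries labelled *Taf4a*-/-. *H2-Eb1*, the other β chain, had 92.9 and 87.3 normalized counts in WT and 28.4 and 17.7 in the libraries labelled *Taf4a*-/- (log2 fold change -1.96, adjusted p = 0.0140 by limma). *March1*, a ubiquitin ligase that removes class II from the surface, fell by 2.20 on the log2 scale, and *Lgmn*, an endosomal protease, by 1.75. *H2-DMa*, a chain of the peptide exchange factor, was not called, with 62.2 and 107 normalized counts in WT against 123 and 163 (log2 fold change 0.79, adjusted p = 0.135 by limma). Without WT replicate 2 this list had 3 genes called.

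No gene for the proteins that hold the coactivators at the promoters was called lower. Of the 7 RFX, CREB and NF-Y genes, 1 was higher and 0 were lower, and the median log2 fold change was 0.14; voom called 2 higher and 0 lower, and at an unadjusted p under 0.05 the counts were 3 and 0. *Nfyc*, an NF-Y subunit, was the gene called (log2 fold change 0.81, adjusted p = 0.0259 by limma), and *Rfx5*, which binds class II promoters, had a log2 fold change of 0.13. No gene of this list was called higher without WT replicate 2, without either replicate of the libraries labelled *Taf4a*-/-, or without a variance trend. Of 15 genes of interferon signalling, 6 were lower and *Tyk2*, a kinase of type I interferon receptors, was higher (log2 fold change 0.53, adjusted p = 0.0473 by limma). *Irf8*, a transcription factor of myeloid cells, had 332 and 398 normalized counts in WT against 45.0 and 54.2 (log2 fold change -2.85, adjusted p = 0.00163 by limma). *Ifngr1*, the ligand-binding chain of the interferon γ receptor, fell by 1.26 (adjusted p = 0.00540 by limma), *Ifnar2*, a chain of the type I interferon receptor, by 1.05 (adjusted p = 0.0163), and *Ifngr2* by 0.98 (adjusted p = 0.0231) on the log2 scale. Without WT replicate 2, or without replicate 2 of the libraries labelled *Taf4a*-/-, 3 of this list were called lower, and 2 were without a variance trend. The call of *Tyk2* was lost without either replicate of the libraries labelled *Taf4a*-/-, without the filter, with a replicate block and without a variance trend.

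Interferon-induced genes outside the MHC pathway were a mixed group. Of 17 tested, 6 were lower and 0 higher by limma and by voom (8 and 1 at an unadjusted p under 0.05), and the median log2 fold change was -0.64. That median was -1.49 without replicate 1 of the libraries labelled *Taf4a*-/- and -0.50 without replicate 2 of that label. *Mx1*, an antiviral GTPase, had 65 and 56 reads in WT and 2 and 1 in the libraries labelled *Taf4a*-/-, a ratio of 36.9 (exact 95% interval 12.3 to 182, counting error only). *Ifit3* and *Ifit1*, antiviral RNA-binding family members, had log2 fold changes of -3.11 and -2.06. Without WT replicate 2 this list had 2 genes called lower, and without replicate 1 of the libraries labelled *Taf4a*-/- it had 8. In the libraries labelled *Taf4a*-/- replicate 1 was above replicate 2 for 14 of the 17, with a median log2 difference of 1.07, which is the direction seen for 8 of the 10 genes above. In WT, replicate 2 was above replicate 1 for 6 of the 17. Whether this difference bears on the MHC genes was not tested. None of 6 NF-κB genes was called by limma or voom, and 0 passed an unadjusted p of 0.05.

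**Figure D4:**
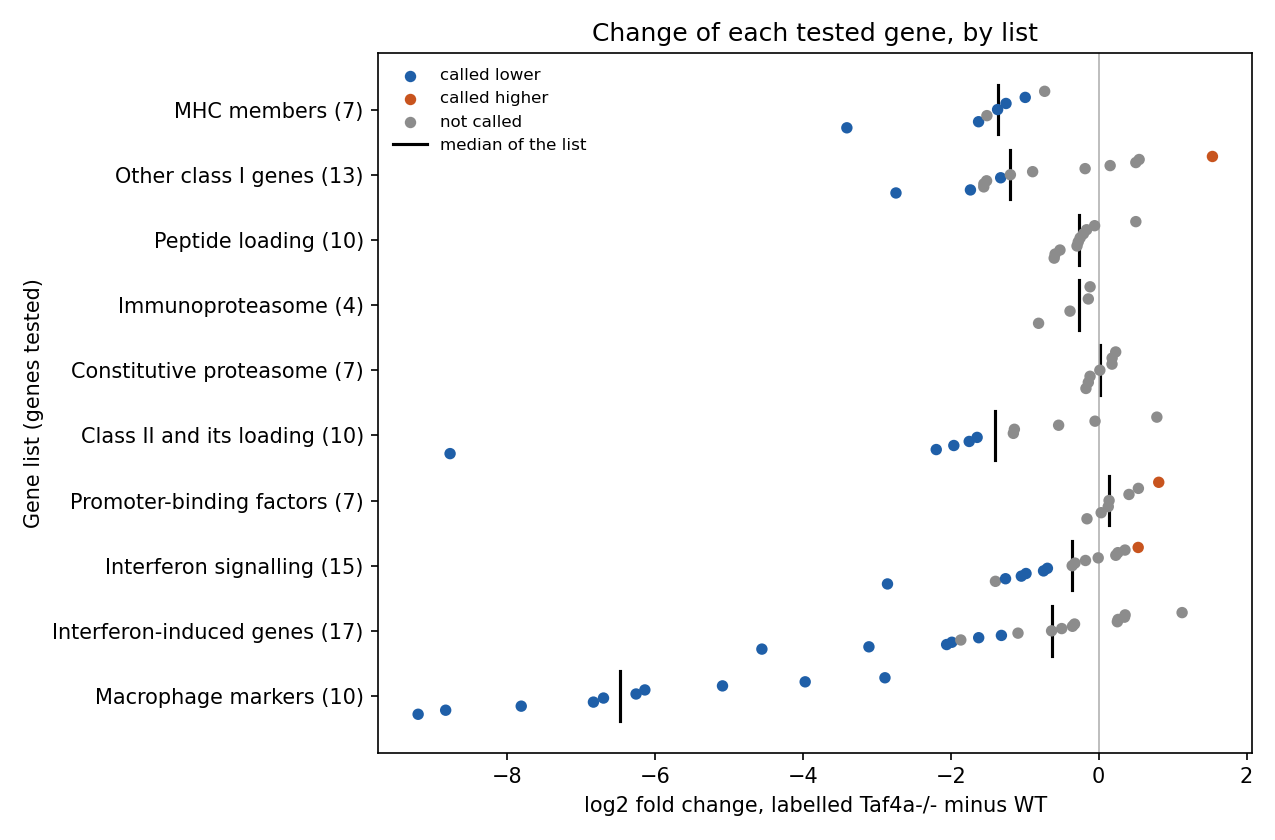
The plot shows the log2 fold change of each tested gene (x axis, libraries labelled *Taf4a*-/- minus WT) in a row for each list, with 1 point for each gene, coloured by whether it was called lower, higher or not, and a black line at the median of the list. The 10 macrophage markers lie between -9.20 and -2.89, while the 10 loading and trimming genes lie between -0.60 and 0.50.

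Of the markers of cells that carry much MHC, those of macrophages differed between genotypes in the same direction as the MHC genes called. All 10 macrophage markers found were lower with the *Taf4a*-/- label, at a median of -6.47 on the log2 scale, and 7 of them were called without WT replicate 2. Their summed level was 8697 and 10838 normalized counts in WT and 198 and 233 in the libraries labelled *Taf4a*-/-, where single markers stood at 0.219% to 13.2% of WT. *Emr1*, *Cx3cr1* and *Tyrobp*, from this list, had 0 reads each in replicate 1 of the libraries labelled *Taf4a*-/- and 8, 7 and 6 reads in replicate 2. By comparison 41.0% of *B2m* and 33.2% of *H2-K1* were left, and 37.2% of *Cd74*, while 8.84% of *H2-Ab1* was left. Of 3 dendritic cell markers tested, *Itgax* was lower (log2 fold change -3.88, adjusted p = 0.00553 by limma), *Zbtb46* (-0.23) and *Ccr7* (0.85) were not called, and the median was -0.23. Of the B cell markers *Cd79b* alone passed the filter (log2 fold change -1.93, adjusted p = 0.0453 by limma). Its call was lost with any of the 4 libraries left out, with quantile normalization, with a replicate block, by voom and without the filter. *Cd79a*, which was not tested, had 2.63 and 2.08 normalized counts in WT against 8.81 and 11.1. Fibroblast markers fell as well, 7 of 8, and all 7 markers of visceral endoderm and liver, with medians of -3.56 and -6.27. Of 7 endothelial markers, 0 were called by limma and by voom, with 3 lower at an unadjusted p under 0.05 and 3 called lower without replicate 2 of the libraries labelled *Taf4a*-/-. Between the libraries labelled *Taf4a*-/-, replicate 1 was above replicate 2 for 2 of 10 macrophage markers against 8 of the 10 genes. Most of these markers had few reads there, such as 2 and 4 for *Ptprc*, so their direction is weakly measured. *Csf1r* had 37 and 43 reads. *Cd68*, with the most reads there (144 and 109), ran the same way as the 8 genes. In WT, replicate 2 was above replicate 1 for 9 of 10 macrophage markers and 7 of the 10 genes. Markers of other cells differed between the WT libraries too, with replicate 2 above replicate 1 for 7 of 8 fibroblast markers and for 0 of 7 pluripotent cell and 0 of 7 endothelial markers. The part of these cells in the values of the 10 genes was not tested.

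Of the 10 genes, 6 lie in the MHC on chromosome 17 (coordinates of the annotation of mm9, NCBIM37). From *H2-K1* (chr17:34132962-34137278, minus strand) come, in order, *Tap1* (chr17:34324498-34334170, plus), *Tap2* (chr17:34340472-34353266, plus), *H2-Ab1* (chr17:34400154-34406363, plus), *H2-Aa* (chr17:34406276-34424772, minus) and *H2-D1* (chr17:35399675-35404444, plus). *B2m* is on chromosome 2 (chr2:121973422-121978819, plus), *Nlrc5*, typed there as a long noncoding RNA, on chromosome 8 (chr8:96996663-97051172, plus), *Ciita* on chromosome 16 (chr16:10480237-10527657, plus) and *Cd74* on chromosome 18 (chr18:60963502-60972300, plus). The values are counts over the exons of each gene. From the start of *H2-K1* to the end of *H2-D1* the annotation and the table share 104 genes. Leaving out the 14 that belong to the pathway or carry an H2 symbol, 61 of the other 90 were tested, of which 9, or 14.8%, were lower and 3 were higher, and the median log2 fold change was 0.03. The share of neighbours called lower was thus near the 17.3% of all genes.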

How the data were processed

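Polyadenylated RNA of 4 libraries was sequenced. The submitters' processing notes name CASAVA 1.8, TopHat 1.3.3, mm9, HTSeq 0.5.3p1 and DESeq as what the authors used, while the study's methods name DESeq 2 for the normalization; the annotation release is not given in the sources used here. The deposited values are counts per gene divided by a size factor of each library, and other units were not used. Dividing by the value of 1 read gave whole reads for 100% of values (tolerance 0.05 reads), with 21732746 to 27733034 reads a library, so depth limits mainly *H2-Aa*, *Nlrc5* and *Ciita*.

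A mean of 10 or more was reached by 16926 genes, which were fitted in R 4.3.3 by limma 3.58.1 (lmFit, eBayes with a variance trend, prior degrees of freedom 4.17) on log2(normalized count + 1), without a block, and p-values were adjusted over all genes tested by the Benjamini-Hochberg method. This scale understates the change of low genes. The script was tested on simulated data. Intervals of ratios of reads are exact (Clopper-Pearson, 95%). Levels per kilobase use the union of a gene's exons in NCBIM37. The members and lists were chosen with earlier results of these data known. Named are the 10 genes, *Taf4a* and, from each list, up to 4 called genes of largest change, or the 2 of highest mean where none was called, and any gene of a list of 8 or fewer; *H2-DMa*, *Tyk2*, *H2-M5*, *H2-M6-ps* and the overlap partners were named after their values were seen. Of the listed genes, 13 were not found under their symbols and are not analysed here. Plots used matplotlib 3.10.9 under Python 3.11.15. Alternatives were other pseudocounts, filters, scalings, variance models and thresholds, a replicate block, voom and leaving out each library.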

Additional observations from a re-analysis of the deposited data

How the results depend on the processing

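Main counts were 5 of the 10 genes lower, and 1906 genes higher and 2928 lower overall. Quantile normalization called 3 of the 10 genes, voom on recovered reads (chosen after seeing the data) 3, and *H2-Ab1* alone (1) was called without a variance trend and at an adjusted p under 0.01. Over all genes, 856 were higher and 1741 lower without the trend, and 331 and 1119 at an adjusted p under 0.01. Leaving out each library in turn gave 2 to 6 of the 10 genes lower, 624 to 2476 genes higher and 1222 to 3038 lower, with a lone library assumed to vary like the other group. WT replicate 2 (2 of the 10 genes lower; 745 genes higher and 1222 lower) and the libraries labelled *Taf4a*-/- replicate 1 (625 higher) and replicate 2 (3 of the 10 lower; 624 higher and 1921 lower) moved counts most. *Ciita* turned to 0.040 without WT replicate 2 and 0.51 without replicate 1 of the libraries labelled *Taf4a*-/-; its range was -0.64 to 0.51. With quantile normalization 51.6% of calls were higher, against 39.4%, and the median of all genes was 0.11. The cause was not tested. A replicate block called 4 of the 10 genes, 1536 genes higher and 2657 lower; same-numbered deviations correlated at 0.01, so the numbers were not taken as pairs. Under the block *Tap2* was called (adjusted p = 0.0411 by limma), and *Tap1* (0.0608) and *Cd74* (0.0547) were not; no other of the 7 changed its call. Among listed genes, *Tyk2* and *Cd79b* lost their calls under the block, interferon signalling went from 6 to 5 lower and interferon-induced genes from 6 to 7. edgeR and DESeq2, planned as alternatives, were not run. In none of the settings was any of the 10 genes called higher. Depth limits *H2-Aa*, *Nlrc5* and *Ciita*, with at most 23 reads a library.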

Other observations

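Among all 34 rows with an H2 symbol, 24 were tested, 5 were lower and 2 were higher, and their median log2 fold change was -0.81. Of all genes tested, 17.3% were called lower and 11.3% higher, so these counts lie near the shares over all genes. The 2 that were higher were nonclassical genes of the M group, singled out after their values were seen. *H2-M5* rose from a mean of 20.7 to 191 normalized counts (log2 fold change 3.09, adjusted p = 0.00402 by limma), and *H2-M6-ps*, annotated as a pseudogene, from 4.71 to 63.1 (log2 fold change 3.41, adjusted p = 0.00692 by limma).

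*Cd86*, a co-stimulatory ligand of antigen-presenting cells, had 142 and 132 reads in WT and 0 and 4 in the libraries labelled *Taf4a*-/- (log2 fold change -5.82, adjusted p = 0.00589 by limma), and it was the gene called among 5 tested ligands. Without WT replicate 2 none of the 5 was called by limma. *Cd40* had 187 and 179 normalized counts in WT against 157 and 158, and *Cd274*, which encodes the inhibitory ligand PD-L1, had 66.6 and 155 against 58.7 and 33.2, without a call.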
